A study of Mus musculus with 12 samples.

Results

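NF-kB is a family of transcription factors that act as dimers, and the genes described here encode its 5 subunits together with 5 of the proteins that hold it back or shape its action. The subunits are Rel, Rela, Relb, Nfkb1 and Nfkb2. The inhibitors are Nfkbia and Nfkbie, which keep dimers in the cytoplasm, Nfkbid and Bcl3, which act on dimers in the nucleus, and Tnfaip3, which encodes the ubiquitin-editing enzyme A20. They were taken from the deposited count table by symbol, which gave 10 of its 25189 genes. All 10 passed the filter on low counts, which left 13196 genes in the tests.

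RNA was sequenced from regulatory T cells (Treg cells), a class of CD4 T cells that limits immune reactions and depends on the transcription factor Foxp3. The 12 libraries came from spleens of 4-week-old female mice and fell into 3 groups of 4. Double-deficient cells lacked working Foxp3 and also Rictor, a subunit of mTOR complex 2 (Foxp3∆EGFPiCre Rictor∆/∆). Foxp3-deficient cells carried the Foxp3∆EGFPiCre allele, in which a fusion of green fluorescent protein and Cre recombinase sits in the Foxp3 gene. WT cells used the Foxp3RFP allele, which keeps Foxp3 working and adds a red fluorescent tag. The labels name 2 kinds of mice for the 3 groups, Foxp3∆EGFPiCre/RFPR26YFP mice and, with the Rictor deletion, mice described as Foxp3∆EGFPiCre/+Rictor∆/∆R26YFP, so every animal carried the Foxp3∆EGFPiCre allele, a Foxp3 allele without that insertion and the R26YFP reporter. Cre was thus made under Foxp3 control in the donors of all 3 groups. Treg cells were sorted in 2 rounds by CD4 and the red or the yellow reporter, and the labels do not say which animal or reporter gave which library. They also do not say that the 4 libraries of a group came from separate animals, so the p-values below measure the spread between these samples, which may be technical.

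In resting cells most NF-kB dimers are bound by IkB proteins such as the products of Nfkbia and Nfkbie. Signals from the antigen receptor, from costimulatory receptors of the TNF receptor family or from cytokines activate the IKK kinases, IkB is degraded, and dimers of Rel and Rela with the Nfkb1 product enter the nucleus. This is the classical arm. In the alternative arm the kinase encoded by Map3k14 leads to processing of the Nfkb2 product, which pairs with Relb. Nfkbia and Tnfaip3 are themselves classical targets of NF-kB and close feedback loops. In Treg cells Rel is known for its part in switching on Foxp3 during development, and Rela and Rel for keeping activated Treg cells functional.

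Several of these genes are known targets of NF-kB, and the promoters of 5 of them are shown because their transcripts differed between groups and their windows hold the kappaB consensus. Each window runs from 250 bases before to 50 bases after the transcription start, on the strand of the gene, from RefSeq on GRCm38.p6. Capitals mark matches to the kappaB consensus, searched on both strands. The windows are Nfkbia at chr12:55492598-55492897 (minus strand), Rel at chr11:23770920-23771219 (minus strand), the first of 3 windows of Nfkb2 at chr19:46304487-46304786 (plus strand), Nfkbie at chr17:45555450-45555749 (plus strand) and Bcl3 at chr7:19822706-19823005 (minus strand).
Nfkbia: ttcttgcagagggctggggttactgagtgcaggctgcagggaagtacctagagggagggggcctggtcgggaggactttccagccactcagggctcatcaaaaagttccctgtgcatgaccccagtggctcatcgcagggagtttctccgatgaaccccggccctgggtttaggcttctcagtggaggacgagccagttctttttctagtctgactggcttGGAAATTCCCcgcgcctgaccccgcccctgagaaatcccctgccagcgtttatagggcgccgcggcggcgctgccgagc
Rel: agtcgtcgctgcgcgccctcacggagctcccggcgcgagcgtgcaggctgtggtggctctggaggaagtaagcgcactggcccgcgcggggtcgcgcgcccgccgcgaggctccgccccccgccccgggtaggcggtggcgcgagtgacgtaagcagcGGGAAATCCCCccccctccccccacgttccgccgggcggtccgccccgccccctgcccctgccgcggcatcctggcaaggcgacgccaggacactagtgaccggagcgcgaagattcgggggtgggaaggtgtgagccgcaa
Nfkb2: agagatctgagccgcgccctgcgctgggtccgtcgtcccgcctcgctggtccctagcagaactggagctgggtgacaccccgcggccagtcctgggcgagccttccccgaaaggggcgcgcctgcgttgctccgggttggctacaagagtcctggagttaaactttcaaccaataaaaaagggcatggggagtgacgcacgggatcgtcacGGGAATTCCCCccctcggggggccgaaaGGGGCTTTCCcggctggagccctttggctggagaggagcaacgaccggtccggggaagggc
Nfkbie: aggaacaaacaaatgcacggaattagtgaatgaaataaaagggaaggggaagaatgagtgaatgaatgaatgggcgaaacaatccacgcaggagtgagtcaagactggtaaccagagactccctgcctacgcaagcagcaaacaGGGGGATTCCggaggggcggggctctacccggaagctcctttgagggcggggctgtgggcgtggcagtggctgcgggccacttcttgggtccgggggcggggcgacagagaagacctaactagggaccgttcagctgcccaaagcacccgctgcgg
Bcl3: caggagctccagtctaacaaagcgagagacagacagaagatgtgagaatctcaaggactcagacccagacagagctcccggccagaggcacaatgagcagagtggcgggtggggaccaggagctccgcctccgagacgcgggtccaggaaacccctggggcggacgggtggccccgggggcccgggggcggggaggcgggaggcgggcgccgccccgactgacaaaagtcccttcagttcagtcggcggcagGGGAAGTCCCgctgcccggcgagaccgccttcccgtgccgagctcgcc
The match in Nfkbia, GGAAATTCCC, starts 29 bases before the transcription start. Rel holds GGGAAATCCC, starting 92 bases before the start, and GGAAATCCCC, which overlaps it. Nfkb2 holds the overlapping pair GGGAATTCCC and GGAATTCCCC, and GGGGCTTTCC, which starts 11 bases before the start. In Nfkbie the match GGGGGATTCC starts 106 bases before the start. In Bcl3 the match GGGAAGTCCC begins 2 bases past the start. RefSeq gave 13 windows for 8 of the 10 genes, and 7 of these 8 genes had a match (Rel, Nfkb2, Nfkbia, Nfkbie, Nfkbid, Bcl3 and Tnfaip3, but not Rela). Of all 27025 genes with RefSeq windows 5.14% had a match, and of all 32851 windows of 300 bases 4.51%. A match describes the letters and is no measurement of binding.

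The libraries held 15769737 to 26114044 reads assigned to genes. Each of the 10 genes had at least 1017 reads in every library (the lowest was Rel in double-deficient library 5), so the spread between libraries, not counting error, limits these comparisons. Levels are given in CPM, the reads of a gene scaled by the size of its library. Foxp3 averaged 102 ± 13.7 CPM in double-deficient, 118 ± 22.8 CPM in Foxp3-deficient and 633 ± 75.8 CPM in WT cells (SD, n = 4 each), with no overlap between either deficient group and WT. Rictor averaged 141 ± 12.6 CPM in double-deficient, 189 ± 31.2 CPM in Foxp3-deficient and 148 ± 14.4 CPM in WT cells, and reads summed over the whole gene do not check a deletion of part of it. All 9 T cell and Treg markers were detected and summed to 5473 to 6094 CPM in double-deficient, 4964 to 6177 CPM in Foxp3-deficient and 6392 to 6812 CPM in WT libraries. The 9 B cell markers summed to 17.8 to 30.0 CPM in double-deficient, 14.6 to 28.3 CPM in Foxp3-deficient and 41.7 to 48.4 CPM in WT libraries, and Pax5 and Ebf1 were under 1 CPM in every library. The 11 myeloid and dendritic cell markers in the table summed to no more than 10.4 CPM and the 6 erythroid and platelet markers to no more than 2.27 CPM in any library. The 6 NK and CD8 markers in the table summed to 77.0 to 111 CPM in double-deficient, 45.1 to 148 CPM in Foxp3-deficient and 56.6 to 70.3 CPM in WT libraries, with Cd8a under 1 CPM in every library. Foxp3-deficient libraries 1 and 3 stood apart in 18 immediate early and dissociation stress genes, whose sums were 8585 CPM in library 1 and 31502 CPM in library 3, against 12639 and 14002 CPM in the other two Foxp3-deficient libraries.

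The design gives 3 comparisons, and they share samples, so their results are not independent of each other. Without Foxp3, 4 of the 10 genes fell and 1 rose relative to WT: Rel, Relb, Nfkb2 and Bcl3 were lower by 1.24-fold to 1.29-fold, and Nfkb1 was 1.31-fold higher. In double-deficient against Foxp3-deficient cells Nfkbia rose 1.73-fold, and no other of the 10 genes passed the test. In double-deficient against WT cells Rel fell 1.57-fold, Nfkbie 1.38-fold, Bcl3 1.30-fold and Relb 1.18-fold, while Nfkbia rose 1.84-fold and Nfkb1 1.24-fold.

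A gene was called where its adjusted p from edgeR's quasi-likelihood test, corrected by Benjamini-Hochberg over all genes tested, was under 0.05. Log2FC stands for the log2 fold change of that fit, in which 1 is a 2-fold difference, and is given with its standard error (SE). In Foxp3-deficient against WT cells 5 of the 10 genes were called, 1 higher and 4 lower, where 13.7% of all genes tested were (6.99% higher and 6.74% lower). In double-deficient against Foxp3-deficient cells 1 of 10 was called, where 27.2% of all genes were, and in double-deficient against WT cells 6 of 10, 2 higher and 4 lower, where 32.6% were (15.8% higher and 16.8% lower). The libraries of Foxp3-deficient and WT cells did not overlap for 5 of the 10 genes, 1 higher and 4 lower, as for 17.8% of all genes tested (8.52% higher and 9.26% lower). Those of double-deficient and Foxp3-deficient cells did not overlap for 1 of 10, lower (25% of all genes, 13.7% higher and 11.3% lower), and those of double-deficient and WT cells for 7 of 10, 2 higher and 5 lower (39.7% of all genes, 20.5% higher and 19.2% lower). The median log2 fold change of the 10 genes was -0.29 in Foxp3-deficient over WT cells, -0.04 in double-deficient over Foxp3-deficient cells and -0.21 in double-deficient over WT cells. Over all genes tested the median was 0.000451 in Foxp3-deficient over WT cells, -0.02 in double-deficient over Foxp3-deficient cells and -0.03 in double-deficient over WT cells. The genes were chosen with earlier results of these data known, so these counts are descriptions. In bulk RNA, fewer cells that express a gene and less RNA per cell cannot be told apart.

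**Figure D1:**
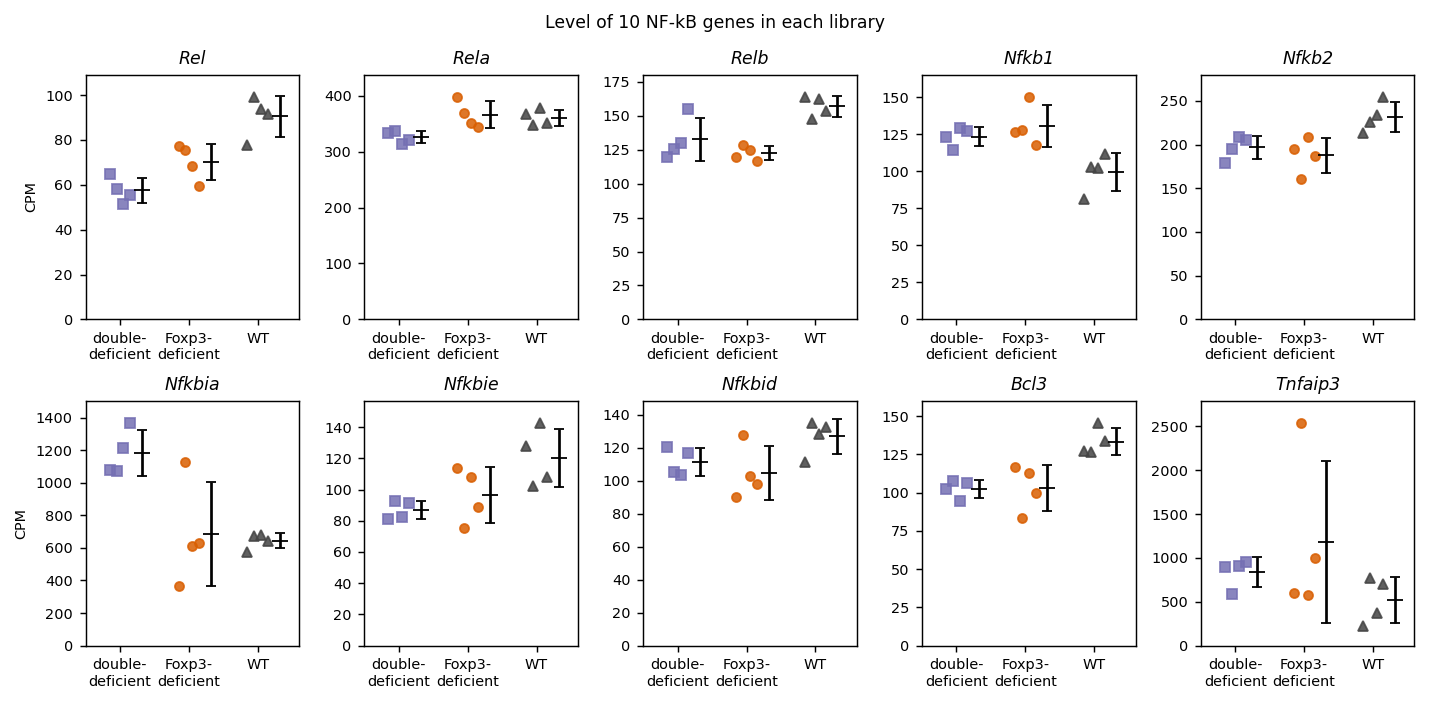
Level of each of the 10 NF-kB genes in every library, in CPM on a linear axis that starts at 0, by group (double-deficient, Foxp3-deficient, WT); points are libraries, and the bar beside them gives the mean ± SD of 4. Rel ran from 51.6 to 64.6 CPM in double-deficient libraries, below the 77.9 to 99.2 CPM of WT libraries, and all double-deficient libraries had at least 1069.7 CPM of Nfkbia, against at most 679.8 CPM in WT.

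Among the subunits with an activation domain, Rel, which encodes c-Rel, differed most. Its level was 64.6, 58.3, 51.6 and 55.6 CPM in double-deficient libraries 2, 3, 4 and 5. It was 77.4, 75.5, 68.5 and 59.7 CPM in Foxp3-deficient and 77.9, 99.2, 93.6 and 91.5 CPM in WT libraries 1, 3, 4 and 5. Every WT library was above every library of both deficient groups, and double-deficient library 2 lay above the lowest Foxp3-deficient library, so those groups overlapped. Rel fell in Foxp3-deficient against WT cells (log2FC -0.37 ± 0.11 SE, edgeR adjusted p = 0.0285) and in double-deficient against WT cells (-0.65 ± 0.11, adjusted p = 0.000323). The difference of double-deficient from Foxp3-deficient cells was -0.29 ± 0.11 (95% interval -0.51 to -0.06) and missed the threshold (edgeR adjusted p = 0.0549). Over 19 other settings this difference ranged from -0.36 to -0.16 and passed the threshold in 5. The call against WT in Foxp3-deficient cells was lost without WT library 3, 4 or 5 or Foxp3-deficient library 4 or 5 (edgeR adjusted p of 0.0646 to 0.0883), whereas in double-deficient cells it held in all 18 other settings tried, at -0.73 to -0.60.

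Rela, which encodes the most abundant subunit per length in these cells, had 333, 337, 313 and 321 CPM in double-deficient libraries. It had 398, 369.5, 352 and 345 CPM in Foxp3-deficient and 367, 347, 377 and 351 CPM in WT libraries. All 4 double-deficient libraries were below all others, by a small step, and the Foxp3-deficient and WT groups overlapped. No comparison of Rela passed the test. The log2 fold change was 0.02 ± 0.07 in Foxp3-deficient over WT cells (95% interval -0.12 to 0.17, edgeR adjusted p = 0.894). It was -0.17 ± 0.07 in double-deficient over Foxp3-deficient cells (-0.31 to -0.02, edgeR adjusted p = 0.0801) and -0.15 ± 0.07 in double-deficient over WT cells (-0.29 to -0.001, adjusted p = 0.111).

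Relb, the partner of the processed Nfkb2 product in the alternative arm, had 119.5, 126, 129.98 and 155 CPM in double-deficient libraries. The values were 119.8, 129, 125 and 117 CPM in Foxp3-deficient and 164, 148, 162 and 153 CPM in WT libraries. Foxp3-deficient libraries were all below WT, while double-deficient library 5 reached into the WT range. Relb fell in Foxp3-deficient against WT cells (log2FC -0.36 ± 0.08, edgeR adjusted p = 0.00934), a call that held in all 19 other settings tried (-0.39 to -0.34). It also fell in double-deficient against WT cells (-0.24 ± 0.08, adjusted p = 0.0383), but that call was lost in 10 of 18 other settings, among them leaving out WT library 1, 4 or 5 or double-deficient library 2, 3 or 4 (edgeR adjusted p of 0.0555 to 0.113). Between double-deficient and Foxp3-deficient cells the log2 fold change of Relb was 0.11 ± 0.08 (95% interval -0.07 to 0.29).

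The subunits made as precursors moved in opposite directions in Foxp3-deficient against WT cells. Nfkb1, whose product is processed to the DNA-binding partner of Rel and Rela, had 123, 114, 129 and 128 CPM in double-deficient libraries, 127, 128, 150.4 and 118 CPM in Foxp3-deficient libraries and 81.4, 103, 102 and 112 CPM in WT libraries. All 8 deficient libraries were above all 4 WT libraries. Nfkb1 rose in Foxp3-deficient against WT cells (log2FC 0.39 ± 0.10, edgeR adjusted p = 0.0154) and in double-deficient against WT cells (0.31 ± 0.10, adjusted p = 0.0281), and the deficient groups differed by -0.08 ± 0.10 (95% interval -0.29 to 0.13). WT library 1 was the lowest, and without it the edgeR adjusted p was 0.0574 in Foxp3-deficient and 0.0956 in double-deficient against WT cells. The first call was also lost without Foxp3-deficient library 4 (0.0591), and the second without WT library 4, double-deficient library 4 or double-deficient library 5 (0.0552 to 0.0715).

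Nfkb2, the precursor of the alternative arm, had 179, 195, 208 and 205 CPM in double-deficient, 195, 161, 209 and 187 CPM in Foxp3-deficient and 213, 225, 234 and 255 CPM in WT libraries. Both deficient groups lay wholly below WT and overlapped each other. Nfkb2 fell in Foxp3-deficient against WT cells (log2FC -0.31 ± 0.09, edgeR adjusted p = 0.0304). In double-deficient over WT cells the change was -0.24 ± 0.09 and missed the threshold (edgeR adjusted p = 0.051), and between the deficient groups it was 0.07 ± 0.09 (95% interval -0.12 to 0.26). The call in Foxp3-deficient cells was lost without WT library 4 or 5 or Foxp3-deficient library 3 or 5 (edgeR adjusted p of 0.0545 to 0.1005), and in double-deficient cells Nfkb2 passed the threshold in 5 of 18 other settings. On the opposite strand 299 bases of Nfkb2 exons (6.52%) overlap Psd and 531 bases (11.6%) overlap an unnamed noncoding gene, and reads from them cannot be told apart if counting ignored strand.

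B cell markers, which were lower in both deficient groups than in WT, moved in the same direction as Rel, Relb and Nfkb2. In Foxp3-deficient against WT cells 3 of the 5 B cell markers tested fell, and in double-deficient against WT cells 4 of 5, while the defining genes Pax5 and Ebf1 were under 1 CPM in every library. Of all genes tested 6.74% fell in Foxp3-deficient and 16.8% in double-deficient against WT cells. The part of the B cell markers in the result was not tested.

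**Figure D2:**
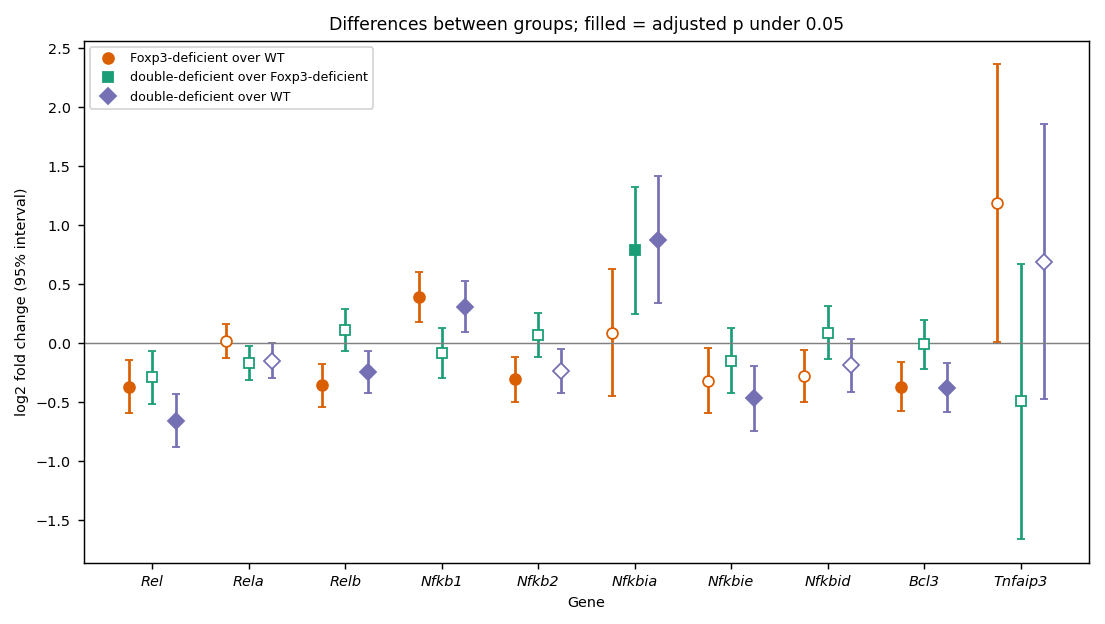
Log2 fold change (vertical axis) of each of the 10 genes (horizontal axis) in the 3 comparisons, with 95% intervals from the fit over 12 libraries; filled symbols are called at an adjusted p under 0.05. Nfkbia sits at 0.79 in double-deficient over Foxp3-deficient cells and 0.88 in double-deficient over WT cells, and the intervals of Tnfaip3 are the widest.

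Nfkbia, which encodes IkB alpha, the inhibitor that NF-kB itself induces, was the member called between the deficient groups. It had 1078, 1069.7, 1214 and 1366 CPM in double-deficient libraries. In Foxp3-deficient libraries 1, 3, 4 and 5 it had 367, 1128, 613 and 632 CPM, and in WT libraries 577, 673, 679.8 and 643 CPM. The double-deficient libraries were all above WT, and Foxp3-deficient library 3 alone reached into their range. Nfkbia rose in double-deficient against Foxp3-deficient cells (log2FC 0.79 ± 0.25, edgeR adjusted p = 0.034) and in double-deficient against WT cells (0.88 ± 0.25, adjusted p = 0.0178). In Foxp3-deficient over WT cells the change was 0.09 ± 0.25 (95% interval -0.44 to 0.63, edgeR adjusted p = 0.871), and without Foxp3-deficient library 3 it was -0.26 (adjusted p = 0.306).

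The size of the Nfkbia difference between the deficient groups depended on which libraries were kept. Without Foxp3-deficient library 3 the log2 fold change was 1.14 (edgeR adjusted p = 0.000333), and without library 1 it was 0.58 (adjusted p = 0.0376). The call was lost without Foxp3-deficient library 4 or 5 or double-deficient library 3, 4 or 5, where the edgeR adjusted p was 0.0524 to 0.0884. It was also lost with no filter on low counts (0.108), with only the groups compared (0.0748) and with the replicate block after removal of length and GC trends (0.0649). Against WT it was lost with no filter on low counts (0.90, edgeR adjusted p = 0.0652), without WT library 1 (0.0503) or without double-deficient library 5 (0.0513).

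Tnfaip3, the gene of A20, which removes activating ubiquitin chains upstream of IKK, varied most among libraries. It had 897, 591, 909 and 957 CPM in double-deficient libraries. The Foxp3-deficient libraries 1, 3, 4 and 5 had 605, 2537, 574 and 1004 CPM, and the WT libraries 225, 776, 377 and 698 CPM. All 3 groups overlapped, and the coefficient of variation was 78.4% in Foxp3-deficient and 50.3% in WT libraries, against 19.9% in double-deficient libraries. No comparison of Tnfaip3 passed the test. Its log2 fold change was 1.18 ± 0.53 in Foxp3-deficient over WT cells (95% interval 0.01 to 2.36, edgeR adjusted p = 0.191) and 0.69 ± 0.52 in double-deficient over WT cells (-0.48 to 1.86, adjusted p = 0.339). In double-deficient over Foxp3-deficient cells it was -0.49 ± 0.52 (-1.66 to 0.67, edgeR adjusted p = 0.515), and without Foxp3-deficient library 3 it was 0.21 (adjusted p = 0.723).

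Immediate early and dissociation stress genes, among them the AP-1 subunits Fos and Jun and the heat shock gene Hspa1a, are given here because they were high in libraries with high Nfkbia. The 18 genes summed to 26572, 22584, 25203 and 27599 CPM in double-deficient libraries 2, 3, 4 and 5. The sums were 8585, 31502, 12639 and 14002 CPM in Foxp3-deficient and 5747, 12824, 7931 and 10756 CPM in WT libraries 1, 3, 4 and 5. The library with the highest sum in the Foxp3-deficient group, library 3, had the highest Nfkbia and Tnfaip3 of its group, and library 1 with the lowest sum had the lowest Nfkbia. In rising order of the sum, Tnfaip3 had 225, 377, 698 and 776 CPM in WT libraries 1, 4, 5 and 3. In the same order it had 605, 574, 1004 and 2537 CPM in Foxp3-deficient libraries 1, 4, 5 and 3. Double-deficient libraries 3, 4, 2 and 5 had 591, 909, 897 and 957 CPM of it. Of the 18 genes, 12 rose and Egr2 fell in double-deficient against WT cells, with a median log2 fold change of 1.38. In double-deficient against Foxp3-deficient cells Ier2 and Zfp36 rose and the median was 0.48, and in Foxp3-deficient against WT cells only Egr2 was called, lower, with a median of 0.70. Of all genes tested 15.8% rose and 16.8% fell in double-deficient against WT cells. In double-deficient against Foxp3-deficient cells 13.9% of all genes rose, and in Foxp3-deficient against WT cells 6.74% fell. Reads without a unique alignment were also highest in double-deficient libraries. They made up 32.1% ± 0.854 of the total in double-deficient, 26.9% ± 2.80 in Foxp3-deficient and 27.0% ± 1.26 in WT libraries. Within the Foxp3-deficient group this share was highest in library 3, at 29.5%, and lowest in library 1, at 23.0%, and all 4 double-deficient libraries, at 31.1% to 33.1%, were above all others. Within WT, library 1 had both the lowest stress gene sum, 5747 CPM, and the lowest Nfkbia, 577 CPM. WT library 4 had the highest Nfkbia of its group, 679.8 CPM, with the lowest share, 25.9%. Its stress gene sum, 7931 CPM, was below those of WT libraries 3 and 5. The part of the stress genes and of these reads in the Nfkbia and Tnfaip3 results was not tested.

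**Figure D3:**
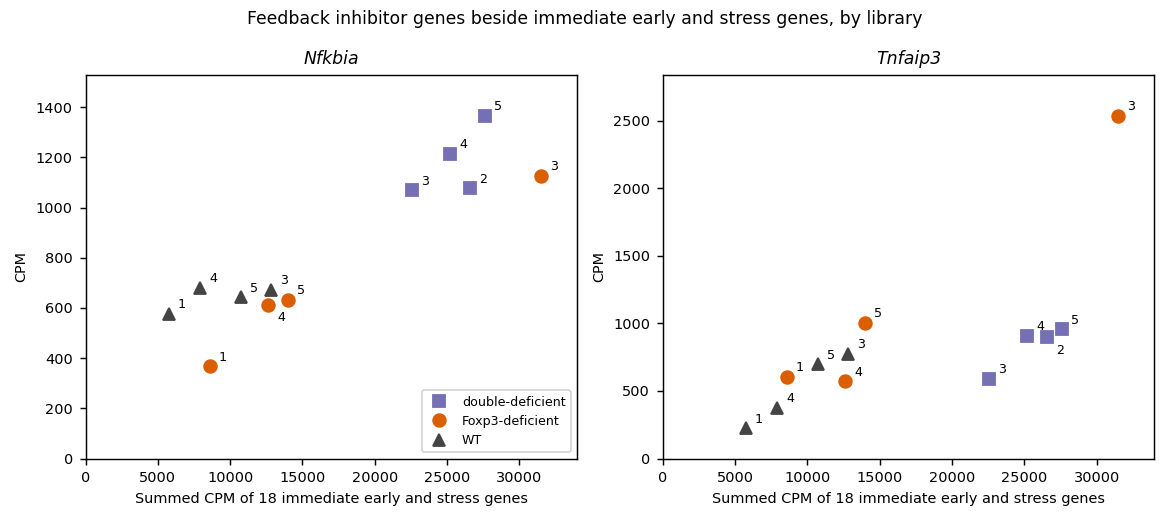
Nfkbia (left) and Tnfaip3 (right) in CPM against the summed CPM of 18 immediate early and dissociation stress genes, for each of the 12 libraries, coloured by group and numbered by replicate; both axes are linear and start at 0. Foxp3-deficient library 3 lies at 31502 CPM on the horizontal axis with 1128 CPM of Nfkbia and 2537 CPM of Tnfaip3, while the other Foxp3-deficient libraries lie between 8585 and 14002 CPM.

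Nfkbie, which encodes IkB epsilon, another cytoplasmic inhibitor, was called in double-deficient against WT cells. It had 81.3, 92.7, 82.5 and 91.1 CPM in double-deficient, 114, 75.1, 108 and 88.7 CPM in Foxp3-deficient and 128, 102, 143 and 108 CPM in WT libraries. Double-deficient libraries were all below WT, and Foxp3-deficient libraries overlapped both other groups. Nfkbie fell in double-deficient against WT cells (log2FC -0.47 ± 0.13, edgeR adjusted p = 0.0125), a call lost without WT library 4 (-0.38, adjusted p = 0.0527). In Foxp3-deficient over WT cells it was -0.32 ± 0.13 (95% interval -0.59 to -0.04, edgeR adjusted p = 0.124), and it passed the threshold without Foxp3-deficient library 1 (adjusted p = 0.047). Between double-deficient and Foxp3-deficient cells it was -0.15 ± 0.13 (95% interval -0.42 to 0.13).

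Bcl3, a nuclear IkB protein that acts with dimers of the processed precursors, had 102, 108, 94.5 and 106 CPM in double-deficient libraries. It had 117, 83.7, 113 and 99.9 CPM in Foxp3-deficient and 127, 127, 145 and 134 CPM in WT libraries. Both deficient groups were wholly below WT, and their means were equal at 103 CPM. Bcl3 fell in Foxp3-deficient against WT cells (log2FC -0.37 ± 0.10, edgeR adjusted p = 0.0195) and in double-deficient against WT cells (-0.38 ± 0.10, adjusted p = 0.00934), and the deficient groups differed by -0.01 ± 0.10 (95% interval -0.22 to 0.20). Without WT library 4 the call in Foxp3-deficient cells was lost (edgeR adjusted p = 0.0748). The antisense gene Gm16175 overlaps 161 bases (6.51%) of Bcl3 exons.

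Nfkbid, which encodes the nuclear protein IkB-NS, known in mice to support Foxp3 expression together with Rel, had 120.4, 105.2, 104 and 117 CPM in double-deficient libraries. It had 90.3, 128, 103 and 98.1 CPM in Foxp3-deficient and 111, 135, 129 and 133 CPM in WT libraries. All 3 groups overlapped, with Foxp3-deficient library 3 inside the WT range and WT library 1 inside the range of both deficient groups. The log2 fold change was -0.28 ± 0.10 in Foxp3-deficient over WT cells (95% interval -0.50 to -0.06, edgeR adjusted p = 0.0974), 0.09 ± 0.10 in double-deficient over Foxp3-deficient cells (-0.13 to 0.31) and -0.19 ± 0.10 in double-deficient over WT cells (-0.41 to 0.03). Without Foxp3-deficient library 3 Nfkbid passed the threshold against WT (-0.39, edgeR adjusted p = 0.00899).

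Per kilobase of annotated exon, the 10 genes spanned a wide range of levels. In double-deficient cells Nfkbia stood first at 734 ± 86.6 CPM per kb, followed by Tnfaip3 at 116 ± 23.1 and Rela at 106 ± 3.47 CPM per kb, which overlapped each other. In Foxp3-deficient cells Nfkbia averaged 425 ± 198, Tnfaip3 163 ± 128 and Rela 119 ± 7.77 CPM per kb, and each overlapped the next. In WT cells the order began with Nfkbia at 399 ± 29.1, Rela at 117 ± 4.54 and Tnfaip3 at 71.8 ± 36.1 CPM per kb, and Nfkbia and Rela were each separated from the next gene. Nfkbid, Bcl3, Nfkb2, Relb and Nfkbie came next in every group, between 28.5 and 47.6 CPM per kb in double-deficient, 31.6 and 44.7 in Foxp3-deficient and 39.5 and 54.1 in WT cells. Most neighbours among these 5 overlapped. The exceptions were Relb above Nfkbie in double-deficient and Nfkb2 above Relb in WT cells. Part of this order depends on the length used. Per kilobase of the longest protein-coding transcript, WT cells had Relb at 71.0 ± 3.49 CPM, above Nfkb2 at 60.3 ± 4.50 CPM. By that length Rela, at 133 ± 5.13 CPM, and Tnfaip3, at 117 ± 59.0 CPM, overlapped in WT cells.

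Rel and Nfkb1 came last in each group. Nfkb1 was above Rel in double-deficient cells (10.2 ± 0.552 against 7.71 ± 0.733 CPM per kb, no overlap), overlapped it in Foxp3-deficient cells (10.8 ± 1.15 against 9.41 ± 1.07) and was below it in WT cells (8.26 ± 1.07 against 12.1 ± 1.21, no overlap). That order depends on the length used. The annotated exons of Nfkb1 cover 12.061 kb, while its longest protein-coding transcript has 4.117 kb, and per kilobase of that transcript Nfkb1 stood at 30.0 CPM in double-deficient, 31.7 CPM in Foxp3-deficient and 24.2 CPM in WT cells, above Rel in every group.

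**Figure D4:**
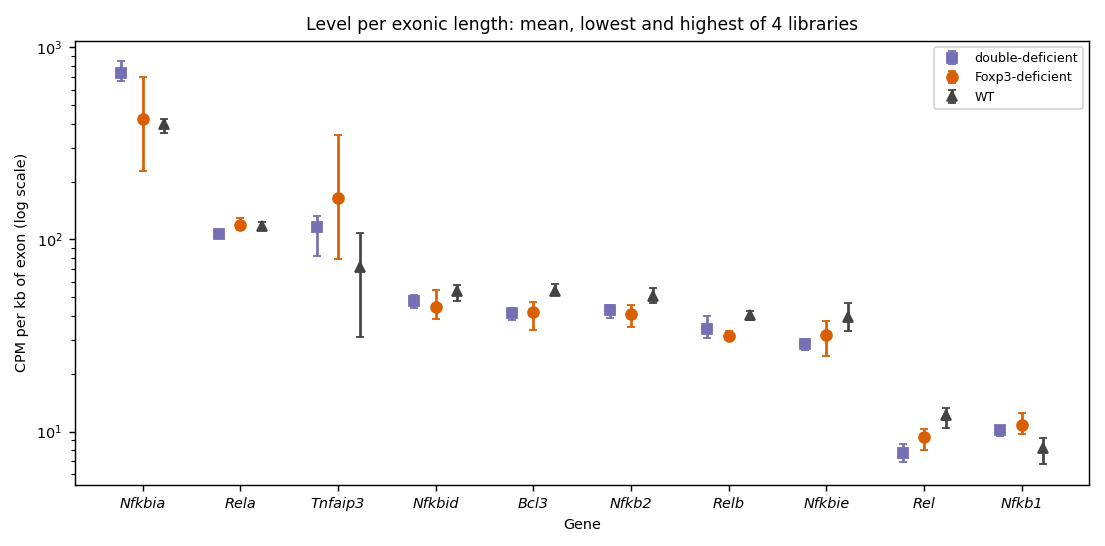
Level per kilobase of annotated exon of each of the 10 genes by group (double-deficient, Foxp3-deficient, WT) on a log axis; symbols are means and bars run from the lowest to the highest of 4 libraries. Nfkbia is first in each group, at 734 CPM per kb in double-deficient, 425 in Foxp3-deficient and 399 in WT cells, and Rel and Nfkb1 are last.

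Ratios within the family are given as descriptions with no test, per kilobase of annotated exon. Summed levels per kb of the alternative-arm genes Nfkb2 and Relb, divided by those of Nfkb1, Rela and Rel, gave 0.622 ± 0.0645 in double-deficient, 0.522 ± 0.0431 in Foxp3-deficient and 0.660 ± 0.0260 in WT cells (SD, n = 4). Foxp3-deficient libraries lay between 0.484 and 0.571, all below the WT range of 0.645 to 0.699, and double-deficient libraries spread from 0.548 to 0.690 over both. The ratio of Nfkb1 to Nfkb2 was 0.239 ± 0.0168 in double-deficient, 0.266 ± 0.0283 in Foxp3-deficient and 0.163 ± 0.0125 in WT cells, and the lowest deficient library, at 0.222, was above the highest WT library, at 0.174. Per kilobase of the longest protein-coding transcripts the ratio of Nfkb1 to Nfkb2 was 0.588 ± 0.0412 in double-deficient, 0.653 ± 0.0695 in Foxp3-deficient and 0.400 ± 0.0307 in WT cells, since the change of length multiplies it by 2.46 in every group. The alternative over classical ratio was then 0.706 ± 0.0714 in double-deficient, 0.594 ± 0.0380 in Foxp3-deficient and 0.776 ± 0.0222 in WT cells. Rel relative to Rela was 0.0725 ± 0.00517 in double-deficient, 0.0788 ± 0.00538 in Foxp3-deficient and 0.104 ± 0.0125 in WT cells.

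In every library the 4 genes Nfkbia, Nfkbie, Nfkbid and Bcl3 summed to more than the 5 subunits per kb. This sum leaves out Tnfaip3 and the other IkB genes Nfkbib and Nfkbiz, and 2 of its genes, Nfkbid and Bcl3, encode proteins that act in the nucleus. The summed levels per kb of Nfkbia, Nfkbie, Nfkbid and Bcl3 over those of the 5 subunits gave 4.23 ± 0.363 in double-deficient, 2.58 ± 0.964 in Foxp3-deficient and 2.39 ± 0.134 in WT cells. Per kilobase of the longest protein-coding transcripts this was 3.32 ± 0.243 in double-deficient, 2.08 ± 0.731 in Foxp3-deficient and 1.97 ± 0.104 in WT cells. Nfkbia made up 86.1% ± 1.44 of the sum of these 4 genes in double-deficient, 76.1% ± 8.74 in Foxp3-deficient and 73.0% ± 1.21 in WT cells. The ratio of Nfkbia to Rela was 6.94 ± 0.987 in double-deficient, 3.60 ± 1.68 in Foxp3-deficient and 3.41 ± 0.291 in WT cells, with a range of 1.76 to 5.82 among Foxp3-deficient libraries.

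Transcript length moved with the comparisons that involve double-deficient cells. With genes in 5 equal bins by exonic length, the median log2 fold change ran from 0.25 in the shortest bin to -0.22 in the longest in double-deficient over Foxp3-deficient cells and from 0.15 to -0.20 in double-deficient over WT cells, and from -0.10 to 0.03 in Foxp3-deficient over WT cells. Nfkbia, with 1.61 kb of exons, is in the shortest bin, and Rel, Nfkb1 and Tnfaip3 are in the longest. With the trends of each library with length and GC content removed, Nfkbia was at 0.64 in double-deficient over Foxp3-deficient cells (edgeR adjusted p = 0.0469) and at 0.83 in double-deficient over WT cells (adjusted p = 0.01). The same removal ended the calls of Bcl3 in Foxp3-deficient against WT cells (-0.29, edgeR adjusted p = 0.126) and of Relb in double-deficient against WT cells (-0.19, adjusted p = 0.0629).

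The rest of the pathway was described with 8 lists of genes, counted in the same test. Over all genes tested, 13.7% were called in Foxp3-deficient against WT, 27.2% in double-deficient against Foxp3-deficient and 32.6% in double-deficient against WT cells. Counts near these shares do not set a list apart from all genes. The list of receptors that signal to NF-kB also held Myd88, Irak1 and Irak4, which are not receptors. Of its 18 tested genes, 4 rose and 7 fell in Foxp3-deficient against WT cells. In double-deficient against Foxp3-deficient cells 3 rose and 3 fell, with Myd88 among those that fell. In double-deficient against WT cells 4 rose and 7 fell, with Irak4 among those that fell. The costimulatory receptor 4-1BB (Tnfrsf9) averaged 77.6 ± 4.48 CPM in double-deficient, 90.1 ± 13.3 CPM in Foxp3-deficient and 357 ± 27.2 CPM in WT cells (log2FC -2.20 ± 0.10 with edgeR adjusted p = 8.15e-10 in double-deficient over WT cells, and -1.99 ± 0.10 with adjusted p = 4.54e-09 in Foxp3-deficient over WT cells). The TNF receptor Tnfrsf1b fell to 250.2 ± 9.66 CPM in double-deficient and 249 ± 37.4 CPM in Foxp3-deficient cells, against 601 ± 61.4 CPM in WT cells. OX40 (Tnfrsf4) averaged 168 ± 25.9 CPM in double-deficient, 101 ± 14.2 CPM in Foxp3-deficient and 354 ± 34.8 CPM in WT cells. GITR (Tnfrsf18) was 2.11-fold higher in double-deficient than Foxp3-deficient cells, at 270.3 ± 49.4 against 128 ± 23.6 CPM, where WT cells had 289 ± 27.5 CPM. The receptor of interleukin-33 (Il1rl1) was 3.41-fold higher there, at 27.2 ± 10.1 against 7.98 ± 3.16 CPM, where WT cells had 33.8 ± 3.43 CPM. Neither GITR nor Il1rl1 passed the test in double-deficient against WT cells (edgeR adjusted p = 0.631 and 0.425), and both fell in Foxp3-deficient against WT cells (3.96e-05 and 0.000264). That of interleukin-18 (Il18r1) averaged 87.0 ± 2.93 CPM in double-deficient, 93.4 ± 15.3 CPM in Foxp3-deficient and 38.0 ± 2.17 CPM in WT cells, and rose in both deficient groups against WT.

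Among the adaptors that link the antigen receptor to IKK, the protease Malt1 rose in Foxp3-deficient against WT cells (log2FC 0.60 ± 0.09, edgeR adjusted p = 0.000199) and fell in double-deficient against Foxp3-deficient cells (-0.38 ± 0.09, adjusted p = 0.00739). Malt1 averaged 158 ± 5.36 CPM in double-deficient, 205 ± 20.4 CPM in Foxp3-deficient and 136 ± 13.3 CPM in WT cells. Rltpr, a scaffold of CD28 signalling, fell in double-deficient cells, at 141 ± 11.6 CPM, against 235 ± 62.5 CPM in Foxp3-deficient and 214 ± 22.9 CPM in WT cells.

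Of 12 genes of IKK subunits, activating kinases and their partners such as Tank, 2 rose and 1 fell in Foxp3-deficient against WT cells. In double-deficient against Foxp3-deficient cells 1 rose and 1 fell, and in double-deficient against WT cells 3 rose and 1 fell. Of all genes tested 13.7%, 27.2% and 32.6% were called in these comparisons, in that order. Map3k14, the kinase that starts the alternative arm, averaged 107 ± 4.59 CPM in double-deficient, 122 ± 14.8 CPM in Foxp3-deficient and 81.7 ± 6.01 CPM in WT cells (log2FC 0.39 ± 0.09 with edgeR adjusted p = 0.0049 in double-deficient over WT cells, and 0.58 ± 0.09 with adjusted p = 0.000347 in Foxp3-deficient over WT cells). The IKK-related kinase Ikbke averaged 446 ± 33.7 CPM in double-deficient, 486 ± 67.5 CPM in Foxp3-deficient and 338 ± 26.0 CPM in WT cells. Ripk1, a kinase at the TNF receptor complex, rose in double-deficient cells, at 175 ± 12.2 CPM, against 137 ± 13.7 CPM in Foxp3-deficient and 120.2 ± 9.41 CPM in WT cells. Ikbkb, the catalytic IKK subunit of the classical arm, averaged 326 ± 31.0 CPM in double-deficient, 411 ± 59.9 CPM in Foxp3-deficient and 377 ± 34.3 CPM in WT cells, and fell in double-deficient against Foxp3-deficient cells. Tank, an adaptor of the IKK-related kinases, averaged 240.2 ± 7.46 CPM in double-deficient, 212 ± 15.7 CPM in Foxp3-deficient and 273 ± 12.1 CPM in WT cells, and fell in Foxp3-deficient against WT cells.

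The 8 TRAF and IAP genes held 1 lower call in Foxp3-deficient against WT cells, 1 higher and 1 lower in double-deficient against Foxp3-deficient cells, and 1 higher and 3 lower in double-deficient against WT cells. The shares called over all genes tested were 13.7%, 27.2% and 32.6%, in the same order. Traf3, which restrains the alternative arm by targeting the Map3k14 product, averaged 61.9 ± 6.32 CPM in double-deficient, 89.8 ± 9.21 CPM in Foxp3-deficient and 93.1 ± 1.98 CPM in WT cells (log2FC of double-deficient cells -0.54 ± 0.09 with edgeR adjusted p = 0.00122 over Foxp3-deficient cells, and -0.59 ± 0.09 with adjusted p = 0.000244 over WT cells). Traf1, itself an NF-kB target, averaged 425 ± 11.5 CPM in double-deficient, 383 ± 36.5 CPM in Foxp3-deficient and 539 ± 25.3 CPM in WT cells, and fell in both against WT. Birc2, a ubiquitin ligase of the IAP family, was higher in double-deficient than Foxp3-deficient cells, at 209 ± 11.5 against 171 ± 25.8 CPM, where WT cells had 201 ± 10.8 CPM.

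A list of 14 genes covered ubiquitin editing and linear ubiquitin, and some of them, such as Tnip1, Tnip3 and Spata2, encode partners of the enzymes. Of these 14 genes, 1 rose and 1 fell in Foxp3-deficient against WT cells. In double-deficient against Foxp3-deficient cells 2 rose and 1 fell, and in double-deficient against WT cells 1 rose and 4 fell. Of all genes tested 13.7%, 27.2% and 32.6% were called in the 3 comparisons, in that order. Otulin, which removes linear chains, averaged 156 ± 13.6 CPM in double-deficient, 117 ± 14.4 CPM in Foxp3-deficient and 108 ± 3.91 CPM in WT cells. Cyld, a deubiquitinase of the same pathway, averaged 291 ± 20.1 CPM in double-deficient, 337 ± 31.6 CPM in Foxp3-deficient and 350.0 ± 9.87 CPM in WT cells. Tnip1, which brings A20 to its substrates, averaged 226 ± 9.01 CPM in double-deficient, 257 ± 17.6 CPM in Foxp3-deficient and 267 ± 5.97 CPM in WT cells, and both genes fell in double-deficient against WT cells. Tnip3 was low throughout, at 5.24 ± 1.94 CPM in double-deficient, 1.33 ± 0.552 CPM in Foxp3-deficient and 4.29 ± 1.11 CPM in WT cells. Spata2, a partner of Cyld, averaged 58.4 ± 4.85 CPM in double-deficient, 77.7 ± 6.13 CPM in Foxp3-deficient and 63.0 ± 4.34 CPM in WT cells, rose in Foxp3-deficient against WT cells and fell in double-deficient against Foxp3-deficient cells. Of the other IkB genes, Nfkbib rose in double-deficient cells, at 114 ± 10.3 CPM, against 84.8 ± 21.2 CPM in Foxp3-deficient and 86.0 ± 3.11 CPM in WT cells, and Nfkbiz passed no test.

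Calls among known targets of NF-kB were mostly lower against WT and mostly higher in double-deficient against Foxp3-deficient cells, with some in the other direction in each comparison. Of 26 tested, 2 rose and 8 fell in Foxp3-deficient against WT cells (median log2 fold change -0.27), 9 rose and 1 fell in double-deficient against Foxp3-deficient cells (median 0.19), and 4 rose and 10 fell in double-deficient against WT cells (median -0.11). The shares called over all genes tested were 13.7%, 27.2% and 32.6%, in that order. Il2ra, the high-affinity receptor chain for interleukin-2, averaged 260.5 ± 37.1 CPM in double-deficient, 185 ± 29.4 CPM in Foxp3-deficient and 534 ± 17.6 CPM in WT cells. Cd83, a surface marker of activation, averaged 122 ± 17.5 CPM in double-deficient, 63.3 ± 20.3 CPM in Foxp3-deficient and 340 ± 35.7 CPM in WT cells. Ebi3, a subunit of the cytokine interleukin-35, averaged 5.24 ± 1.31 CPM in double-deficient, 2.28 ± 0.961 CPM in Foxp3-deficient and 14.5 ± 0.511 CPM in WT cells. The cytokine gene Ltb was higher in double-deficient than Foxp3-deficient cells, at 2227 ± 192 against 1202 ± 284 CPM, where WT cells had 1553 ± 112 CPM. Ier3 was too, at 5.38 ± 2.32 against 0.689 ± 0.488 CPM, where WT cells had 0.717 ± 0.150 CPM. The chemokine receptor gene Ccr7 averaged 1032 ± 137 CPM in double-deficient, 1001 ± 24.6 CPM in Foxp3-deficient and 609.7 ± 53.8 CPM in WT cells, and rose in both deficient groups against WT. Il2ra is also controlled by Foxp3, and the list was not made from Treg cells alone.

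The genes whose pattern lay closest to that of a called member were found by the root mean square difference of log2 CPM, centred on each gene's mean, over the 12 libraries among genes of at least 10 CPM. Nearest to Nfkbia were Arl4a (0.14), Hilpda (0.15) and Ndufb11 (0.15), and nearest to Rel were P2rx4, Pcm1 and Cecr5 (0.13 each). Nfkb1 was followed by Cant1 (0.10), Pdlim5 (0.13) and Aebp2 (0.13). The closest to Relb were Plgrkt (0.08), Mipep (0.09) and Pfkfb4 (0.10), and to Nfkb2 they were Csnk1g3 (0.09), Tgfb1 (0.10) and Slc35e2 (0.10). Bcl3 lay closest to Eif4enif1 (0.08), Ahcyl2 (0.10) and Tapbpl (0.10), and Nfkbie to Pacsin1 (0.07), Mr1 (0.09) and Eml2 (0.10). As an example of the likeness, P2rx4 averaged 37.6 ± 1.597 CPM in double-deficient, 49.0 ± 7.19 CPM in Foxp3-deficient and 60.9 ± 2.85 CPM in WT cells, where Rel averaged 57.5 ± 5.47 CPM in double-deficient, 70.3 ± 8.01 CPM in Foxp3-deficient and 90.6 ± 9.04 CPM in WT cells. These values describe the 12 libraries, which share group and depth differences.

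**Figure D5:**
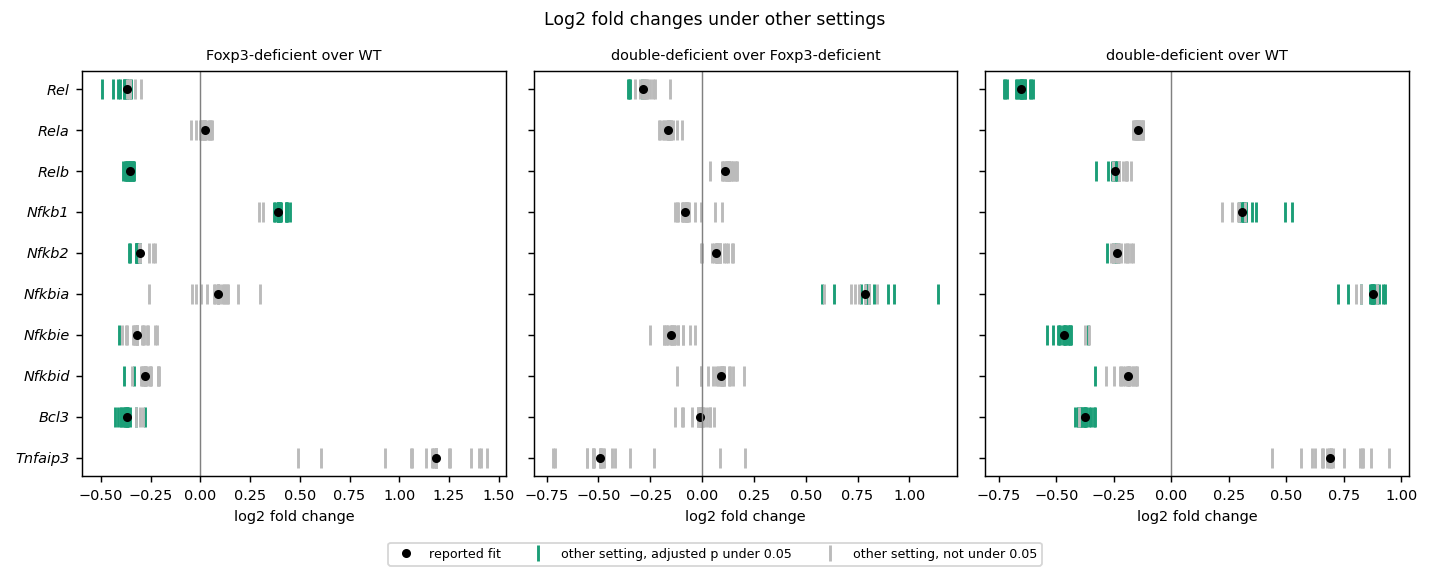
Log2 fold change of each of the 10 genes (horizontal axis) under every setting tried, in the 3 comparisons; black points are the reported fit and ticks the other settings, green where the adjusted p was under 0.05. Relb stays between -0.39 and -0.34 in Foxp3-deficient over WT cells and Rel between -0.73 and -0.60 in double-deficient over WT cells, while Tnfaip3 spreads from -0.72 to 0.21 in double-deficient over Foxp3-deficient cells.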

How the data were processed

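The authors deposited raw counts, whole numbers of reads per gene and library with no normalization. STAR 2.5.1b (mm10, GRCm38) and HTSeq are named in the submitters' processing notes. Per the labels, the SMART-Seq v4 kit gave the cDNA, and 2 different kits are named for the libraries. No strand setting, HTSeq version or Gencode release is stated (not given in the sources used here). HTSeq's summary rows were kept out of library sizes and tests; reads outside genes were 5.00% ± 0.366 of the total in double-deficient, 7.83% ± 1.51 in Foxp3-deficient and 8.18% ± 0.507 in WT libraries (SD, n = 4).

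After filterByExpr and TMM scaling, edgeR 4.0.16 (R 4.3.3) was run as 1 robust quasi-likelihood fit over 12 libraries without covariates, and the steps were tested on simulated data. Adjusted p-values are Benjamini-Hochberg over 13196 genes. CPM use TMM-scaled library sizes; 95% intervals use the standard error and the t quantile of the fit. The biological coefficient of variation was 17.4%, and no library was a copy of another. Reads carry no molecular identifiers. GENCODE M21 on GRCm38 gave exonic lengths for 97.5% of the genes, found by symbol or synonym; 1 myeloid, 1 NK and CD8 and 2 erythroid and platelet markers were not in the table. Promoter windows came from RefSeq on GRCm38.p6.

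The members and all gene lists were chosen with earlier results of these data known. Named genes were the 10 members, Foxp3, Rictor, up to 3 called genes with the smallest adjusted p per list and comparison, and the 3 genes nearest in pattern to each called member (mean of at least 10 CPM, prior count 2); Fos, Jun, Hspa1a and Nfkbiz were named after their values were seen. Some genes of these lists are not reported here. Alternatives were other scalings, filters, tests (DESeq2 1.42.0, limma 3.58.1 voom), a separate fit per pair of groups, a replicate block, removal of length and GC trends, leaving out libraries and, chosen after seeing the data, levels per length of the longest protein-coding transcript.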

Additional observations from a re-analysis of the deposited data

Results flagged for a closer look

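Tnfaip3 in double-deficient library 3, at 591 CPM, lay far from the other double-deficient libraries, which had 897 to 957 CPM. The gap was 0.836 of the range of the group, above Dixon's 95% critical value for 4 samples. It was the only flag in 30 combinations of gene and group, where chance flags about 1 in 20. The same library had the lowest immediate early and stress sum of its group, 22584 CPM. Its part in the result was not tested. Without it the log2 fold change of Tnfaip3 was -0.35 in double-deficient over Foxp3-deficient cells (edgeR adjusted p = 0.705) and 0.83 in double-deficient over WT cells (adjusted p = 0.315).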

How the results depend on the processing

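The number of the 10 genes called was 5 in Foxp3-deficient against WT cells and 3 with only the groups compared, 2 without WT replicate 4 and 2 to 6 over all libraries left out in turn. In double-deficient against Foxp3-deficient cells it was 1, and 0 with no low-count filter, with only the groups compared or with the replicate block and the length and GC trends removed. It was 2 with a stricter filter or the replicate block alone, 3 with DESeq2, and 0 to 2 over libraries left out in turn. In double-deficient against WT cells it was 6, and 3 with the replicate block, with 3 to 6 over libraries left out in turn (3 without WT replicate 4). Over all 18 other settings of that comparison the number was 3 to 8. Without Foxp3-deficient replicates 1 and 3, 5 genes were called against WT and 1 in double-deficient against Foxp3-deficient cells. Over all genes, 3585 were called in double-deficient against Foxp3-deficient cells, 2382 with only the groups compared, 2061 with the block and the trends removed, and 2153 (without double-deficient replicate 5) to 4430 over libraries left out in turn. The other two comparisons stayed within 1.5 times of 1812 and 4299 genes in all settings tried.

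The labels do not say what the replicate numbers mark, and they were not taken to pair the samples because not every correlation of deviations between same-numbered libraries was over 0.1. The correlations were 0.0289 to 0.203 for Foxp3-deficient and WT (3 of 4 over 0.1), -0.0434 to 0.0622 for double-deficient and Foxp3-deficient and -0.0524 to 0.0429 for double-deficient and WT libraries. As a hint from the data, 5 of 8 libraries in Foxp3-deficient and WT, 0 of 6 in double-deficient and Foxp3-deficient and 2 of 6 in double-deficient and WT correlated best with their own number in the other group. Whether the numbers mark a shared source in Foxp3-deficient and WT cells is not known. With the number as a block 1783, 2756 and 3494 genes were called in Foxp3-deficient against WT, double-deficient against Foxp3-deficient and double-deficient against WT cells. In the last of these Relb, Nfkb1 and Nfkbie lost their calls under the block (edgeR adjusted p = 0.167, 0.0869 and 0.0534). In Foxp3-deficient against WT cells Tnfaip3, Nfkbie and Nfkbid missed the threshold with the block too (0.134, 0.0781 and 0.0575).

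Small log2 fold changes that were not called changed sign. Between double-deficient and Foxp3-deficient cells Bcl3 was 0.0058 with upper quartile scaling, 0.0099 without filter, 0.024 with the block and -0.095 to 0.056 with a library left out. Nfkbid was -0.0040 with the block, -0.0072 with trends removed and -0.12 with both. Nfkb1 was 0.095 with trends removed and 0.061 with the block as well. Without Foxp3-deficient replicates 1 and 3, Nfkb2 was -0.0074 and Tnfaip3 0.086, and with a library left out Tnfaip3 ranged from -0.72 to 0.21. In Foxp3-deficient over WT cells Nfkbia was -0.024 with limma-voom and -0.045 without Foxp3-deficient replicates 1 and 3, and -0.26 to 0.30 with a library left out. Rela was -0.049 without both and -0.022 to 0.047 with a library left out. Rictor in double-deficient over WT cells was 0.20 with trends removed and 0.21 with the block as well. The causes were not tested.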
